A study of Mus musculus with 2 samples.

Results

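The genes described here are 10 genes of intermediate progenitors and of the commitment of cortical progenitors to the neuronal fate: Eomes (also called Tbr2), Neurog1, Neurog2, Neurod1, Neurod4, Insm1, Trnp1, Gadd45g, Btg2 and Mfng. They were taken by gene symbol, and all 10 were found among the 21896 gene symbols of the files. All 10 had at least 1 FPKM (fragments scaled to transcript length and library size) in at least 1 library, as did 11777 genes in all. The RNA came from the ventricular zone and the subventricular zone (VZ–SVZ), dissected together from cortices of C57/BL6 embryos at E13.5. The first genotype, Rcor2fl/fl, carries floxed alleles with no Cre named and is called the control here. The second, Rcor2cko, carries the same floxed alleles and Cre under the Nestin promoter, and each genotype has 1 library. Embryos of both genotypes came from crosses between Rcor2fl/+NesCre parents. Nestin-driven Cre acts across the neural lineage, ventral telencephalon included, and the number of embryos behind each library is not given in the sources used here. Rcor2 encodes a co-repressor that works with the histone demethylase LSD1, and the comparison asks how expression in the progenitor zones differs when it is deleted.

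Radial glia of the dorsal telencephalon divide at the ventricle. On commitment to neurogenesis, many of them give rise to intermediate progenitors, which move to the SVZ and divide into projection neurons. The proneural factors Neurog1 and Neurog2 start this programme, Eomes marks the intermediate progenitors, and Neurod1 and Neurod4 act in late progenitors and newborn neurons. Insm1 favours the formation of these progenitors, Gadd45g and Btg2 restrain the cell cycle, Mfng tunes Notch signalling, and Trnp1 is a nuclear protein of radial glia whose level bears on how many basal progenitors form.

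No test of the genotypes can be made from single libraries, and no difference has a replicate check. Every comparison is one of these 2 libraries. Because bulk RNA was measured, fewer cells of a type and less RNA per cell cannot be told apart. The deposited FPKM values correspond to scaling totals of 18841070 fragments for the control and 25481460 for Rcor2cko, read from the steps between low values. Rcor2 itself measured 90.6 FPKM in the control against 55.7 FPKM in Rcor2cko, a log2 change of -0.70, and fragments from exons outside the deleted part stay in this value. The libraries also differed in genes unrelated to neurogenesis. Xist, the RNA that coats the inactive X, was at 177 and 0.109 FPKM, while the Y-linked genes Eif2s3y, Ddx3y, Kdm5d and Uty were at most 0.0239 FPKM in the control and from 3.38 to 19.8 FPKM in Rcor2cko. Sex-linked expression differed along with the genotype, and effects of sex and genotype cannot be told apart. Ttr, of the choroid plexus, was listed at 0 in the control against 57.8 FPKM in Rcor2cko. All 10 genes lie on autosomes.

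The upstream sequences are shown for 4 genes chosen by their expression values: Neurod4, Trnp1 and Neurod1 had the lowest log2 changes of the 10 genes, and Neurog2 was the most abundant and was not lower. No expression result rests on these sequences. Each reads 5′ to 3′ on the strand of its gene, ends before the annotated gene start, and comes from RefSeq (table build GRCm38.p6). All were placed on mm9 by exact match. Capitals mark CANNTG, the E-box, the core that bHLH factors such as Neurog2 and Neurod1 bind.
Neurod4, chr10:129717311-129717560, minus strand: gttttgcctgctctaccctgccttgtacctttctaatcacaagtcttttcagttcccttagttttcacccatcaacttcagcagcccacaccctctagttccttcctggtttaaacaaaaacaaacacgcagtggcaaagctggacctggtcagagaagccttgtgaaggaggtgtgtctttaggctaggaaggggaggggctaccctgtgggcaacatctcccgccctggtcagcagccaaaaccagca
Trnp1, chr4:133054466-133054715, minus strand: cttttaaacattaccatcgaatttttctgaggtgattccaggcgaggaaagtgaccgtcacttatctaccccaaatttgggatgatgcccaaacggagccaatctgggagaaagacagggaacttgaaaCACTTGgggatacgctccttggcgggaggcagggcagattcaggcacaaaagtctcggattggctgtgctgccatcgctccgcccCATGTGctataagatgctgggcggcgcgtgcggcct
Neurod1, chr2:79296909-79297043, minus strand: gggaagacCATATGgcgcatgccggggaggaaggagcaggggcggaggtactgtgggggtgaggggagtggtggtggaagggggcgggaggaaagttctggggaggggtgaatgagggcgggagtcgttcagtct
Neurog2, chr3:127335804-127336053, plus strand: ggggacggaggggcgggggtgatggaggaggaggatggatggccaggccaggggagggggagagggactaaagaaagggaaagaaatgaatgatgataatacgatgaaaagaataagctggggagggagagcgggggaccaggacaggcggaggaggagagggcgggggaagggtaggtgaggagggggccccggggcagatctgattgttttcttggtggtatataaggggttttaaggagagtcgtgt

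Of the 10 genes, 8 had an entry in the RefSeq promoter table; Insm1 and Mfng had none. Within 250 bases before the RefSeq start, CANNTG was found for 3 of these 8 genes. Trnp1 held CACTTG at position -121 and CATGTG at -36, Neurod1 held CATATG at -242, and Gadd45g held CACGTG at -142, a further E-box, CATTTG, beginning at -104, and the palindrome CAGCTG nearest to the start, at -55. Positions count the first base of the motif back from the RefSeq start. For Neurod1 the last 115 of the 250 bases lie inside the GENCODE gene and are not printed. Across 32851 windows of the same length in the table, 66.2% held CANNTG, and so did 56.6% of the 10839 windows of genes that passed 1 FPKM. CAGATG, searched for on both strands and itself a CANNTG, was in none of the 8 genes. It was in 14.4% of all windows and in 9.80% of those of genes that passed 1 FPKM. CAGCTG, also a CANNTG, was in 1 of the 8, in 13.0% of all windows and in 11.8% of those of genes that passed. These letters describe the windows and say nothing about binding.

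The log2 change of a gene is that of its FPKM + 0.1 from control to Rcor2cko. Counted together, 8 of the 10 genes were lower in Rcor2cko, where 57.6% of the 11777 genes were lower. Their median log2 change was -0.14, against -0.03 over all 11777 genes. Past 1.5-fold, 2 of the 10 were lower, against 1.76% of all genes, and none was higher, against 3.79%. The files give a 95% interval for each FPKM value, which holds more than counting error. These deposited intervals lay apart, with the lower value in Rcor2cko, for 2 of the 10 and for 1.21% of all genes. Fragments recovered from the FPKM values gave a 95% exact (Clopper-Pearson) interval of the ratio without pseudocount, which covers counting error only. It was below 0 for 5 of the 10 (Neurod4, Trnp1, Neurod1, Eomes and Gadd45g) and above 0 for none. The fragments of Eomes, with 2 transcripts, are approximate, and without it the count was 4 of 9. Among the 8460 genes with recovered fragments, Eomes not included, it was below 0 for 23.2% and above 0 for 14.0%, so that an interval of this kind off 0 was common between these libraries. These counts hold for the deposited scaling. Scaling Rcor2cko to the control by the median ratio adds 0.035 to every log2 ratio. This is more than the distance from 0 of the nearer bounds of Neurog2 (-0.0033), Btg2 (-0.018) and Gadd45g (-0.025). The intervals of Neurog2 and Btg2 would then lie above 0, and that of Gadd45g would include 0. Summed, the 10 genes came to 358 FPKM in the control against 328 FPKM in Rcor2cko.

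**Figure D1:**
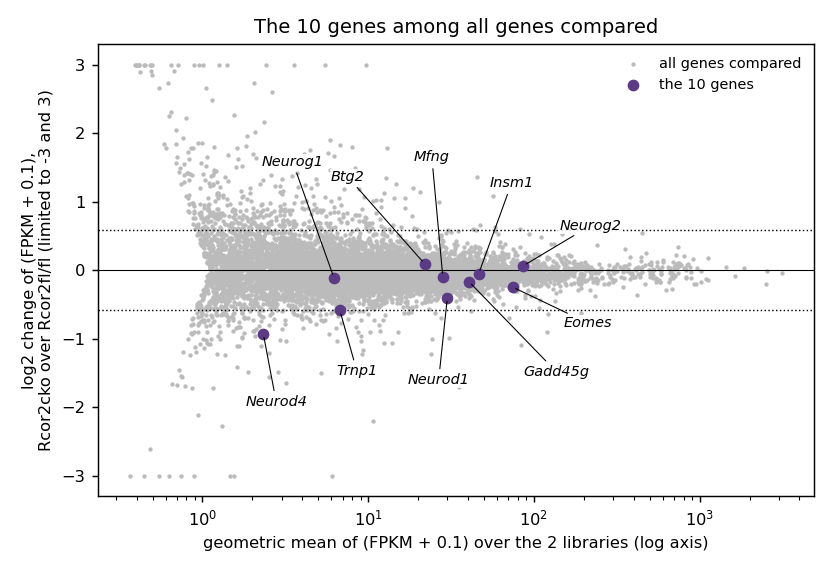
Log2 change of FPKM + 0.1, Rcor2cko over control, against the geometric mean of FPKM + 0.1 on a log axis for the 11777 genes compared (grey; values limited to -3 and 3) and the 10 genes (purple). Dotted lines are 1.5-fold. Neurod4 and Trnp1 lie below the lower line, and the other 8 between the lines.

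The proneural factors were near the same level in both libraries. Neurog2 spans 127336054 to 127338549 of chromosome 3 in mm9, on the plus strand, with 2 exons in GENCODE vM1. It was at 84.3 FPKM in the control (deposited interval 74.0 to 94.6) and at 88.0 FPKM in Rcor2cko (77.3 to 98.8). This level was above that of 95.3% of the 11777 genes in the first library and 95.7% in the second. The log2 change was 0.06. Its 3214 and 4523 fragments gave an exact interval from -0.0033 to 0.13. Neurog1, its relative on chromosome 13 from 56351866 to 56353524 with 1 exon, measured 6.35 and 5.87 FPKM, with a log2 change of -0.11. Its 176 and 219 fragments gave an interval from -0.41 to 0.18, so that no difference in Neurog1 was detectable at this depth.

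The T-box factor Eomes was slightly lower in Rcor2cko. Eomes lies on chromosome 9 from 118387330 to 118395250 on the plus strand and its longest annotated transcript has 6 exons. It was at 80.9 FPKM in the control (70.6 to 91.3) and 68.1 FPKM in Rcor2cko (59.2 to 77.0), a log2 change of -0.25. The deposited intervals overlapped. Only the control values are given per transcript, and there the transcript of 3715 nt was at 69.5 FPKM, 85.9% of the gene, and that of 3658 nt at 11.4 FPKM. Since these lengths are close, fragments could be approximated, at 5357 and 6085. They gave a log2 ratio from -0.30 to -0.20 in the exact interval. When the 3715 nt transcript alone was set against the whole gene in Rcor2cko, the log2 change was -0.03, a setting that lowers only the control value.

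Neurod4 and Neurod1, bHLH factors that follow the neurogenins, were lower in Rcor2cko. Neurod4 lies on chromosome 10 from 129705209 to 129717296 on the minus strand, with 2 exons. It had the lowest level of the 10 genes in both libraries, 3.12 FPKM in the control (2.30 to 3.93) and 1.59 FPKM in Rcor2cko (1.06 to 2.11). The log2 change was -0.93, the lowest of the 10 genes, and 70 of the 11777 genes were lower still. Its 185 and 127 fragments gave an exact interval from -1.31 to -0.64. Neurod1, on chromosome 2 from 79292678 to 79296908 on the minus strand, measured 34.4 FPKM (29.9 to 39.0) against 26.0 FPKM (22.3 to 29.7), a log2 change of -0.40. The exact interval, from 1492 and 1519 fragments, was -0.51 to -0.30. Neurod4 and Neurod1 were the only genes among the 10 whose deposited intervals did not overlap. For Neurod1 the gap was narrow, from 29.66 to 29.87 FPKM. Scaling Rcor2cko to the control by the total, the median ratio or the upper quartile closes this gap, with log2 shifts of 0.024 to 0.044. Their relatives in newborn neurons had log2 changes nearer to 0. Neurod2 measured 149 and 135 FPKM, with a log2 change of -0.14, and Neurod6 had a log2 change of -0.05, and the deposited intervals overlapped for both. The exact interval was below 0 for both, from -0.19 to -0.10 for Neurod2 and from -0.08 to -0.01 for Neurod6.

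**Figure D2:**
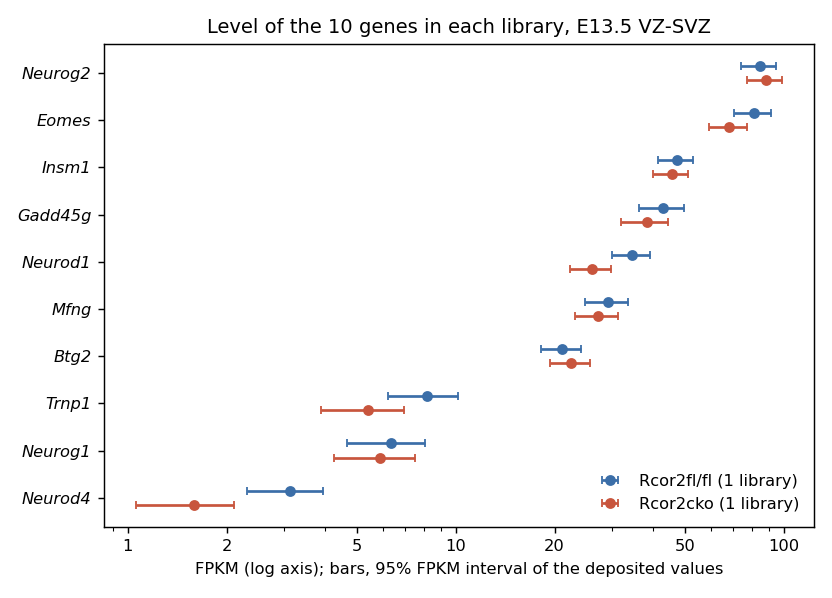
FPKM of the 10 genes on a log axis in the control and the Rcor2cko library, 1 library each. Bars are the 95% FPKM intervals of the deposited values, with those of Eomes in the control combined over its transcripts. The bars of Neurod1 and Neurod4 lie apart, and those of the other 8 genes overlap.

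Beside Neurod4, Trnp1 was the gene past 1.5-fold. Trnp1 lies on chromosome 4 from 133047015 to 133054465 on the minus strand, with 2 exons. It was at 8.18 FPKM in the control (6.19 to 10.2) and 5.402 FPKM in Rcor2cko (3.87 to 6.94), so that the deposited intervals overlapped. The log2 change was -0.59 and 202 of the 11777 genes were lower. Its 225 and 200 fragments gave an exact interval from -0.88 to -0.32. Trnp1 stood just past the fold: under 6 of the 9 other scalings, pseudocounts and summaries tried on single genes it was less than 1.5-fold lower, with a highest log2 change of -0.52.

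The remaining genes had small changes in both directions. Insm1 is a zinc finger factor whose SNAG domain is known to recruit LSD1 complexes. It lies in a single exon on chromosome 2 from 146047657 to 146050752, and measured 47.2 and 45.5 FPKM in control and Rcor2cko. Its log2 change was -0.05, and 2513 and 3267 fragments put the ratio between -0.13 and 0.02. Gadd45g, a growth arrest gene on chromosome 13 from 51942047 to 51943837 with 4 exons, measured 42.9 and 38.1 FPKM. Its log2 change was -0.17 (exact interval -0.32 to -0.02). Its deposited intervals overlapped. Mfng, which adds sugars to Notch receptors, lies on chromosome 15 from 78586312 to 78603905 with 8 exons. Its levels were 29.0 and 27.2 FPKM, with a log2 change of -0.10 (-0.22 to 0.03). Btg2, an antiproliferative gene that marks neurogenic divisions, lies on chromosome 1 from 135971747 to 135975697 with 2 exons. Its levels were 21.1 and 22.5 FPKM, and its log2 change of 0.09 (-0.02 to 0.20) was the highest of the 10 genes.

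**Figure D3:**
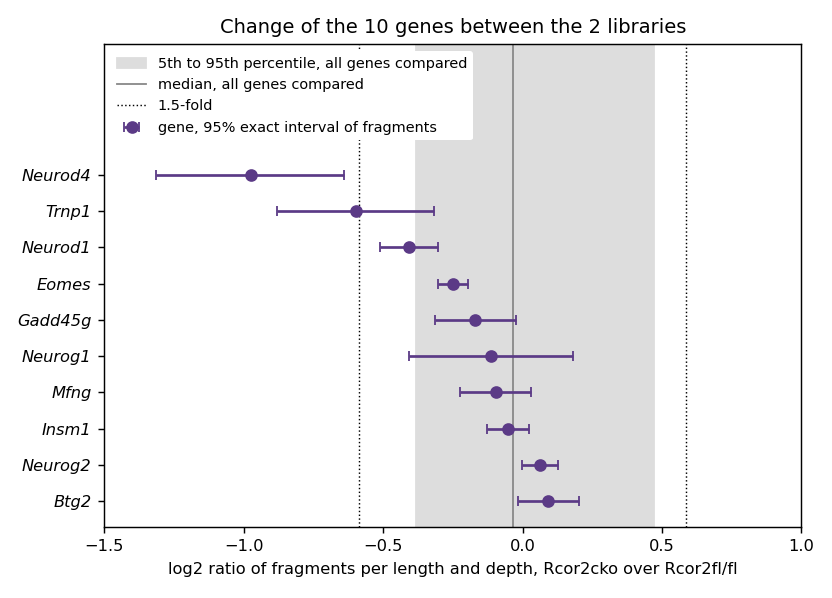
Log2 ratio of the 10 genes, Rcor2cko over control, from recovered fragments, with 95% exact intervals (fragments of Eomes are approximate). The grey band is the 5th to 95th percentile of the log2 change on FPKM + 0.1 of the 11777 genes compared (-0.38 to 0.47), the grey line their median and the dotted lines 1.5-fold. Neurod4, Trnp1 and Neurod1 lie left of the band and the other 7 inside it.

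The order of the levels changed little between the libraries. Neurog2 was highest in both, followed by Eomes, Insm1 and Gadd45g. The deposited intervals of Neurog2 and Eomes overlapped in the control and not in Rcor2cko. Insm1 and Gadd45g did not differ beyond their intervals in either. Neurod1 was above Mfng in the control and below it in Rcor2cko, and Trnp1 was above Neurog1 in the first and below it in the second, and within each pair the intervals overlapped in both libraries. Neurod4 was last and apart from its neighbour in both.

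A ratio of genes within a library does not depend on how the libraries are scaled. With Neurog2 as the denominator, a choice made after the values were seen, Neurod4 went from 0.0370 to 0.0180, a log2 change of the ratio of -1.04. The relative half-widths of the deposited intervals, added in quadrature, gave -1.69 to -0.38. For Neurod1 over Neurog2 the ratio was 0.408 and 0.295, a log2 change of -0.47 (-0.84 to -0.09). For Eomes over Neurog2 it was 0.960 and 0.774, a log2 change of -0.31, and its interval from -0.67 to 0.05 includes 0. For Insm1 over Neurog2 the log2 change was -0.12 (-0.47 to 0.24). For Neurog1 over Neurog2 it was -0.18 (-0.78 to 0.43). Neurog2 is 1 of the 2 genes that were not lower, and with Eomes as the denominator the log2 change for Neurod1 was -0.16, with an interval from -0.54 to 0.23 that includes 0. Of these 6 ratios, those of Neurod4 and Neurod1 to Neurog2 had intervals off 0.

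Other genes listed for intermediate progenitors, radial glia and newborn projection neurons did not share 1 direction. Of 13 further genes listed for intermediate progenitors, 12 were in the files and all 12 passed 1 FPKM. Of these, 6 were lower and 6 higher, none past 1.5-fold, with a median log2 change of -0.05. The lowest was Nhlh1, a bHLH gene of newborn neurons, at 14.0 and 10.3 FPKM (-0.44). The highest was Elavl4, a neuronal RNA-binding protein, at 41.0 and 48.6 FPKM (0.25). Since the list holds such neuronal genes, its counts do not describe intermediate progenitors alone. Among 11 radial glia genes, 5 were lower and 6 higher, none past 1.5-fold, with a median of 0.01. They ranged from Hes1, a Notch target, at 12.5 and 8.57 FPKM (-0.53), to Fabp7, a lipid-binding protein, at 372 and 539 FPKM (0.53). Of 12 genes of newborn projection neurons, 8 were lower and 4 higher, with a median of -0.04. The only one of these 12 past 1.5-fold was Nhlh2, a relative of Nhlh1, at 9.91 and 6.51 FPKM (-0.60). Tbr1, the T-box relative of Eomes that follows it in newborn neurons, was at 71.5 and 83.2 FPKM (0.22).

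Some genes stand in more than 1 list. In the Notch pathway, with which the proneural factors act through the ligand Dll1, 16 of 17 genes passed 1 FPKM, and 12 were lower and 4 higher with a median of -0.14. Dll1 was at 16.1 and 16.2 FPKM (0.01). Jag1, another ligand, was the only one past 1.5-fold, at 1.67 and 2.94 FPKM (0.78). Of the fringe genes, Lfng was at 11.4 and 8.44 FPKM (-0.43), Rfng at 21.2 and 19.0 FPKM (-0.16) and Mfng, as above, had a log2 change of -0.10. The log2 change of the ratio of Mfng to Lfng was 0.34, with an interval from the deposited bounds of -0.17 to 0.85. The 8 proliferation genes were all lower, from -0.27 (Aurkb, 17.0 and 14.0 FPKM) to just under 0, with a median of -0.15. Of the 12 housekeeping genes, 10 were lower, with a median of -0.10.

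Of the marker lists of other cell types that the dissection can hold, some differed by more than the 10 genes and others did not. The 6 endothelial genes had a median log2 change of 0.08 and the 4 erythroid genes that passed a median of -0.14, with none past 1.5-fold in either list. Of 6 genes of Cajal-Retzius cells and the cortical hem, a source of early neurons at the cortical edge, 4 passed 1 FPKM and all 4 were lower past 1.5-fold, with a median of -1.12. Their list summed to 47.6 FPKM in the control against 20.2 FPKM in Rcor2cko, most of it Reln, at 36.5 and 15.6 FPKM (-1.22). Wnt3a, the defining gene of the hem, was at 0.311 FPKM in the control, from 15 fragments, and listed at 0 in Rcor2cko. Wnt2b, also in this list, was at 0.911 and 0.547 FPKM. Wnt3a and Wnt2b did not pass 1 FPKM. Of 11 genes of the ventral telencephalon, 10 passed and 9 were higher past 1.5-fold, with a list sum of 27.9 and 68.7 FPKM. Gsx2 and Isl1 were listed at 0 in the control. The choroid plexus list summed to 0.913 and 61.5 FPKM, nearly all of it Ttr, and 2 of its 7 genes passed 1 FPKM. The part of these lists in the values of the 10 genes was not tested.

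**Figure D4:**
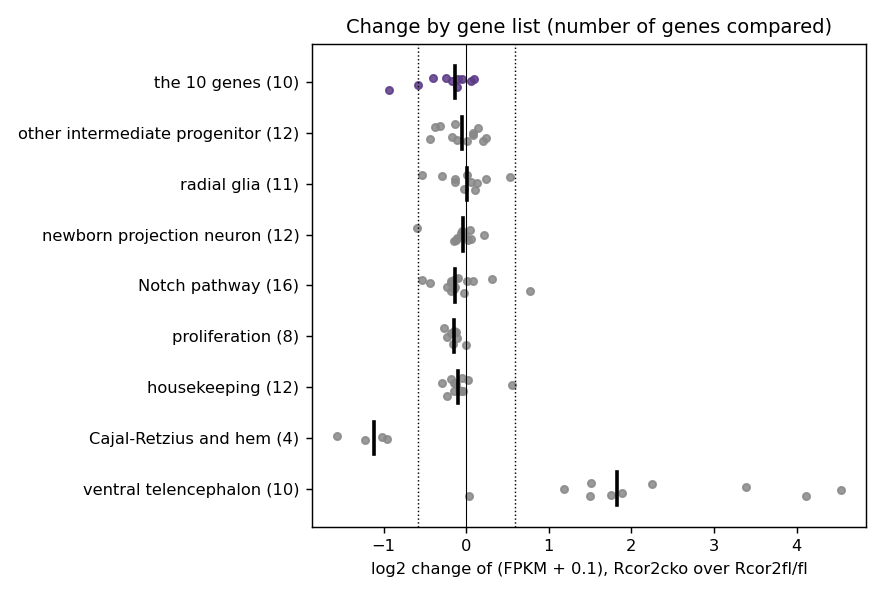
Log2 change of FPKM + 0.1, Rcor2cko over control, of the 10 genes (purple) and of genes of other lists (grey), 1 point per gene that passed 1 FPKM, with the median as a black bar. Dotted lines are 1.5-fold and the vertical spread within a row has no meaning. The median of the 10 genes is -0.14, and the lists of Cajal-Retzius and hem genes (-1.12) and of ventral telencephalon genes (1.82) lie apart from it on either side.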

How the data were processed

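RNA of the E13.5 VZ–SVZ was measured in 1 Rcor2fl/fl and 1 Rcor2cko library, grouped by the genotype label. The authors isolated RNA on RNeasy columns and used a stranded mRNA library kit. The submitters' processing notes name TopHat 1.3.3, Cufflinks 1.2.0 and mm9, and the methods of the paper another TopHat version at default settings and Cuffdiff. Whether strand was used in quantification is not given in the sources used here. The authors deposited FPKM with 95% bounds, in 27641 rows per RefSeq transcript for Rcor2fl/fl and 21896 rows per gene for Rcor2cko. All rows of the 10 genes had the status OK.

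Transcript rows were summed per gene, with the distances to their bounds added in quadrature. A gene was compared when either library reached 1 FPKM, by the log2 ratio of FPKM + 0.1, which understates the change of low genes. A change was counted past 1.5-fold. Where a gene had a single transcript of 1000 nt or more, fragments were recovered from FPKM, the transcript length less a fitted offset (194 and 201 nt) and the fitted value of 1 fragment. Of the values up to 100 fragments, 99.3% of 4019 and 99.4% of 3948 came out within 0.1 of a whole number. For a transcript of 2000 nt, 3 fragments correspond to 0.0882 and 0.0654 FPKM. The deposited FPKM intervals of the 10 genes in the control were 1.80 to 4.77 times as wide as counting error alone gives. The steps were run on simulated counts of single-transcript genes. These were turned into FPKM by the same formula, so this checked the computation and not the deposited values. No count model was fitted and no p-value computed.

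The members and the gene lists were chosen with earlier results of these data known. Named were the 10 genes, Rcor2, Xist, Ttr and, from each list, up to 2 genes with the highest and 2 with the lowest log2 change whose mean over both libraries reached 5 FPKM. Outside that rule, Jag1, Wnt3a, Wnt2b, Gsx2, Isl1, Neurog3, Rest and the Y-linked genes were named after their values were seen. Positions, counted from 1, come from the GENCODE vM1 annotation of NCBIM37, that is mm9. Python 3.11.15, numpy 2.4.6, pandas 2.3.3, scipy 1.17.1 and matplotlib 3.10.9 were used. E15.5 was not analysed here.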

Additional observations from a re-analysis of the deposited data

How the results depend on the processing

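Of the settings tried, 1, the subtraction of a running median over genes of like level, was chosen after seeing the data. The median log2 change of the 10 genes (-0.14 to -0.09) and that of Rcor2 (-0.70 to -0.66) kept their sign under the settings run on them. So did each of the 10 genes, though Insm1 came as near to 0 as -0.0053. Total, median and upper-quartile scaling shift log2 ratios by only 0.024 to 0.044. A kept sign therefore does not settle the direction of genes whose exact intervals include 0. The number past 1.5-fold lower was less stable. It was 1 in place of 2 with a pseudocount of 1, with median, total, upper-quartile and quantile scaling, with the running median subtracted, with a filter of 5 FPKM in either library, which leaves out Neurod4, and with non-overlapping 95% FPKM intervals required as well. It was 0 past 2-fold. With the scalings and the pseudocount it was Trnp1 that fell short, since its change lies next to the fold. Neurod4 ranged from -0.99 to -0.67, the latter with a pseudocount of 1, and Neurod1 from -0.41 to -0.36. Eomes moved to -0.03 with the highest row per gene, by construction of that setting. Depth limits Neurog1, Trnp1 and Neurod4 most, with at most 225 fragments in a library. No paired analysis was possible because each genotype has a single library.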

Other observations

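Beside Insm1, the only SNAG domain factors above 1 FPKM were Scrt1 and Scrt2, zinc finger repressors of newborn neurons, out of 7 listed. Scrt2 measured 50.6 FPKM in the control against 37.5 FPKM in Rcor2cko, a log2 change of -0.43 with an exact interval of the fragments from -0.50 to -0.36, and its deposited FPKM intervals did not overlap. Scrt1 measured 19.9 and 16.2 FPKM, with a log2 change of -0.29 (-0.39 to -0.19), and its deposited intervals overlapped. Insm1 had a log2 change of -0.05. Of 8 genes listed for the CoREST complex with which SNAG factors work, 4 were lower and 4 higher, none past 1.5-fold, with a median of -0.02. This list includes Rest (0.18) and leaves out Rcor2 (-0.70). Of the 11 closest relatives of the 10 genes, 8 passed 1 FPKM, none past 1.5-fold, with a median of -0.13. Neurog3, the remaining neurogenin, was listed at 0 in both libraries.

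Among other cell types, the 6 microglia genes were all higher, 3 of them past 1.5-fold. Their median was 0.45 and their list sum 16.8 and 24.0 FPKM. Their levels were low, from 1.32 to 6.30 FPKM over both libraries, and the deposited intervals lay apart for 1 of the 6.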
